A study of Mus musculus with 4 samples.

Results

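The genes described are 47 mouse genes for protein folding in the endoplasmic reticulum (ER) and for the unfolded protein response. They were chosen by gene symbol from knowledge of the pathway, with earlier results of these data known. All 47 symbols were found in the count table of 55536 gene rows. The symbol Ddit3 has 2 rows, of which ENSMUSG00000116429 lies inside the other and held 0 counts in all 4 libraries, so its main row ENSMUSG00000025408 was used. Data came from bulk RNA sequencing of polyadenylated RNA from pancreatic islets of male C57BL/6 mice aged 8 weeks, isolated with collagenase. Of the 4 libraries, 2 were non-depleted and 2 were insulin-depleted, meaning that a depletion panel against insulin sequences was applied while the library was made. The labels call the 2 libraries of each group biological replicates. They do not say whether animals were pooled or whether libraries with the same number share an animal. The p-values therefore reflect library-to-library spread, which may be technical. That spread includes differences between replicate numbers that recur in both groups, since the test modelled group only. The column names of the non-depleted libraries hold a size selection tag and those of the insulin-depleted libraries do not, so size selection and depletion cannot be told apart in any group difference.

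The ER is where secreted proteins such as proinsulin enter the secretory route. Nascent chains pass through the Sec61 channel, lose their signal peptide, and are folded by chaperones and by enzymes that form disulfide bonds, while chains that fail to fold are sent back to the cytosol and degraded. When unfolded chains pile up, the sensors IRE1, PERK and ATF6 set off the unfolded protein response, which raises chaperones and slows translation. Beta cells make large amounts of a disulfide-bonded hormone and are known to depend on this response, and acinar cells of the surrounding digestive tissue are also rich in ER.

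Total counts were 50605417 and 60528485 in non-depleted replicates 1 and 2, and 19316173 and 65030111 in insulin-depleted replicates 1 and 2. Ins1 and Ins2 together took 4.14% and 3.97% of counts in non-depleted replicates 1 and 2, and 0.195% and 0.264% in insulin-depleted replicates 1 and 2. Levels are therefore given as CPM, gene counts scaled to a common total of the counts left without Ins1 and Ins2. Every beta, alpha, delta and PP, acinar, duct, endothelial, stromal and immune marker listed had counts above 0 in every library. The acinar marker Amy2a5 had only 2 to 4 counts per library. The 6 beta-cell markers summed to 18315 to 19612 CPM, most of it Iapp (17396 to 18761 CPM). The 12 acinar markers summed to 15106 and 6222 CPM without depletion and to 15145 and 6237 CPM with it, replicate 1 first. Acinar transcripts were thus 2.43 times as high in replicate 1 as in replicate 2 of either group, and of those 12 markers Amy2a5 stayed at or under 0.104 CPM.

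The ER stress response element (ERSE) is a promoter site known from ER chaperone genes, and its CCAAT end is bound by NF-Y and its CCACG end by ATF6. RefSeq promoter windows (GRCm38.p6, 250 bases before to 50 bases after the start) were on hand for 37 of the 47 genes, in 40 windows. Exact matches to CCAAT, 9 bases of any kind and CCACG, on either strand, were found in 9 of these 37 genes (24.3%). Over all 27025 gene symbols with a window, 37 symbols (0.137%) held the motif. A match is a description of letters and was not tested as a binding site. All 10 matches are printed because they show the element in each of the 9 genes that hold it; they read 5′ to 3′ on the gene's strand, with CCAAT and CCACG, or their complements ATTGG and CGTGG, in capitals.
Hspa5, chr2:34772017-34772051, plus strand: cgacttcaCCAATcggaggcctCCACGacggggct
Hsp90b1 distal, chr10:86705630-86705664, minus strand: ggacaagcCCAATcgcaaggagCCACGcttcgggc
Hsp90b1 proximal, chr10:86705525-86705559, minus strand: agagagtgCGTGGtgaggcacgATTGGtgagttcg
Calr, chr8:84847067-84847101, minus strand: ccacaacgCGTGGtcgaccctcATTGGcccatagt
Canx, chr11:50325792-50325826, minus strand: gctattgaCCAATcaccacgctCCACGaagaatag
Pdia6, chr12:17266483-17266517, plus strand: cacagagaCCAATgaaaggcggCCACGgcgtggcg
Dnajc3, chr14:118937819-118937853, plus strand: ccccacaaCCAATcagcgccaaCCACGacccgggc
Creld2, chr15:88819512-88819546, plus strand: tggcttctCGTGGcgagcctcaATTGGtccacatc
Syvn1, chr19:6046524-6046558, plus strand: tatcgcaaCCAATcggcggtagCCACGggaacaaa
Derl3, chr10:75893234-75893268, plus strand: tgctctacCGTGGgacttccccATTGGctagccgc

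The motif lay on the gene's strand in 6 matches and on the opposite strand in 4, and started between 212 and 44 bases before the annotated start. None of the 52 other pathway genes with a window held it. The related element ERSE-II (ATTGG, 1 base of any kind, CCACG, either strand) was in 2 of the 37 genes, Herpud1 and Dnajb11, against 0.0444% of all symbols. In Herpud1, which encodes an ER membrane protein of degradation, it stood 52 bases before the start, and 112 bases before the start lay TTGCATCA, the kind of site that ATF4 uses with C/EBP proteins. Herpud1 is shown for both elements.
Herpud1 ERSE-II, chr8:94386369-94386395, plus strand: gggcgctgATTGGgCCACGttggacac
Herpud1 TTGCATCA site, chr8:94386309-94386332, plus strand: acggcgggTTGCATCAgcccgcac

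TTGCATCA was in 1.03% of all symbols, with Herpud1 its only carrier among the 37 genes. The XBP1 site TGACGTGG, held by 0.714% of all symbols, was found among them in Txndc5 alone.

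**Figure D1:**
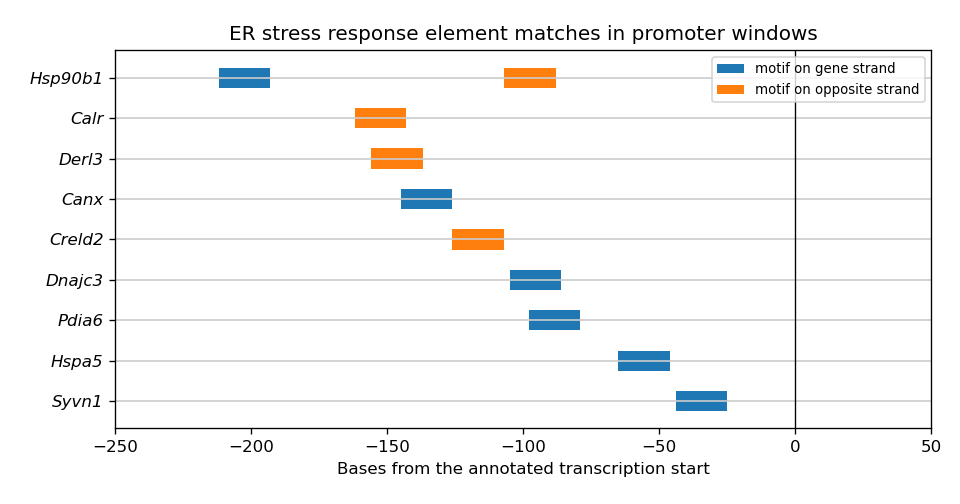
Position of exact ERSE matches in the promoter windows of 9 genes; the horizontal axis gives bases from the annotated transcription start (0), each bar is a 19-base match, and colour shows the strand of the motif relative to the gene. Hsp90b1 holds 2 matches and the other genes 1 each, and all lie between 212 and 26 bases before the start.

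Taken as a whole, the group made up 1.61% of counts outside insulin in non-depleted replicate 1, 1.48% in non-depleted replicate 2, 1.62% in insulin-depleted replicate 1 and 1.48% in insulin-depleted replicate 2. The libraries numbered 1 were the higher ones in both groups, and the groups overlapped. The 6 genes with the most counts took 41.6% of the group's total. To compare genes, CPM was divided by the length of the merged annotated exons (CPM per kb). On that scale levels spanned 67.9-fold, and all 47 genes lay above the median of 5.14 CPM per kb over the 14977 protein-coding genes tested. The lowest count of any of the 47 genes in any library was 269, for Derl3, so none was near the limit of detection.

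Hspa5, which encodes the ER Hsp70 chaperone BiP, was first (ENSMUSG00000026864, chromosome 2, 34771970 to 34777547, plus strand, GRCm38). It stood at 472 and 375 CPM per kb without depletion and at 477 and 373 CPM per kb with it, replicate 1 first. Its mean of 424 CPM per kb placed it at rank 47 among all protein-coding genes tested. Every library had more Hspa5 than Pdia3, the next gene, had in any library.

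Pdia3, a disulfide isomerase that works with the lectin chaperones, averaged 323 CPM per kb over the 4 libraries. Hsp90b1, the ER Hsp90 chaperone GRP94, averaged 308 CPM per kb, with a range of 284 to 336 that overlapped that of Pdia3. Of the 31-base stretches of Hsp90b1, 17.1% are shared with other annotated genes, most with 1810014B01Rik on the opposite strand, and whether counting used strand is not given in the sources used here. The lectin chaperones hold glycoproteins until they fold, and Calr averaged 277 and Canx 179 CPM per kb. P4hb, the classic protein disulfide isomerase, averaged 268 CPM per kb. These 6 genes led under either length definition, since the same 6 stood first when the longest annotated transcript was used instead of merged exons.

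The rest of the folding machinery spread over a wide range. Among partners of BiP, the J-domain protein gene Dnajb9 averaged 172 CPM per kb, the Hsp110-type nucleotide exchange factor gene Hyou1 89.4, Dnajc3 82.5 and Dnajb11 26.9. Sil1, the other nucleotide exchange factor, averaged 17.7 CPM per kb, the lowest of the chaperone class on merged exons. With the longest transcript it stood at 35.6, above Dnajb11 (34.6) and Creld2 (31.4). Manf and Creld2, secreted ER stress proteins, averaged 64.0 and 31.4 CPM per kb, and Sdf2l1, a partner of ER Hsp70 complexes, 49.1. For disulfide bonds, Pdia6 averaged 90.2, Ero1lb 67.1, Pdia4 60.5 and Txndc5 29.2 CPM per kb. Ero1lb encodes the oxidase that recharges disulfide isomerases and is known as the islet form.

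Subunits of the same complex differed in level per length. Sec61a1, the channel itself, averaged 46.7 CPM per kb, Sec61b 57.6 and Sec61g 31.8. With the longest transcript these levels were 99.1, 101 and 42.1 CPM per kb, so the step between Sec61a1 and Sec61b rests on the length chosen. Shared sequence makes some of these levels uncertain. Of 31-base stretches, 54.5% in Sec61b, 21.98% in Spcs1, 21.3% in Sec61g and 15.7% in Sec61a1 occur in other annotated genes, as do 16.2% in the oxidase gene Ero1lb. In the translocon-associated protein complex, Ssr3 averaged 123, Ssr2 81.5, Ssr4 40.5 and Ssr1 36.1 CPM per kb. In the signal peptidase complex, Spcs3 averaged 150.0, Spcs1 59.5 and Spcs2 51.5 CPM per kb. With the longest transcript Spcs1 stood at 74.1 and Spcs2 at 74.7, so the order of these 2 also rests on the length chosen. Ssr1 has 10431 and Sec61a1 6732 bases of merged exons, and for 13 of the 47 genes the level was over 1.5 times as high with the longest transcript.

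Degradation genes had the lowest median of the 7 classes, 28.6 CPM per kb. Herpud1 led them with 100.5 CPM per kb, followed by Derl1, a membrane protein of the retrotranslocation route, with 64.7. The adaptor Sel1l averaged 41.2 CPM per kb and its ubiquitin ligase partner Syvn1 (HRD1) 11.7. Edem3, Edem1 and Edem2, which act on the sugars of misfolded glycoproteins, averaged 28.8, 28.6 and 23.3 CPM per kb. Within the Derlin family Derl2 averaged 14.0 and Derl3 6.25 CPM per kb, and Derl3 was last of all 47 genes.

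Among sensors, Atf6 averaged 42.5, Ern1 (IRE1) 38.9 and Eif2ak3 (PERK) 24.2 CPM per kb. Their transcription factors were spread more widely, with Atf4 at 156, Xbp1 at 94.96 and Ddit3 (CHOP) at 41.4 CPM per kb. IRE1 activates Xbp1 by cutting a short piece out of its mRNA, and gene counts hold both forms together. The feedback genes had similar levels to each other: Ppp1r15a (GADD34) averaged 41.3, Ppp1r15b 37.0 and Trib3 36.5 CPM per kb. The first 2 of these guide the phosphatase that reverses PERK signalling, and Trib3 is a pseudokinase induced through ATF4. Wfs1, an ER membrane protein whose loss causes diabetes in Wolfram syndrome, averaged 28.5 CPM per kb.

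Of the 46 pairs of neighbours in this order, 35 had ranges over the 4 libraries that overlapped and 11 did not. The clear steps included those from Hspa5 to Pdia3, from P4hb to Canx and from Syvn1 to Derl3, and the last 5 places (Edem2, Sil1, Derl2, Syvn1, Derl3) did not overlap each other. With the longest transcript Derl2, Syvn1 and Derl3 were again last in that order, while Sil1 and Edem2 moved up to places 37 and 38. Genes with an ERSE match had a median of 90.2 CPM per kb (n = 9, from 6.25 to 424), and those with a window but no match 41.2 (n = 28, from 14.0 to 323), as a description with no test. With the longest transcript the medians were 155 and 48.9 CPM per kb.

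**Figure D2:**
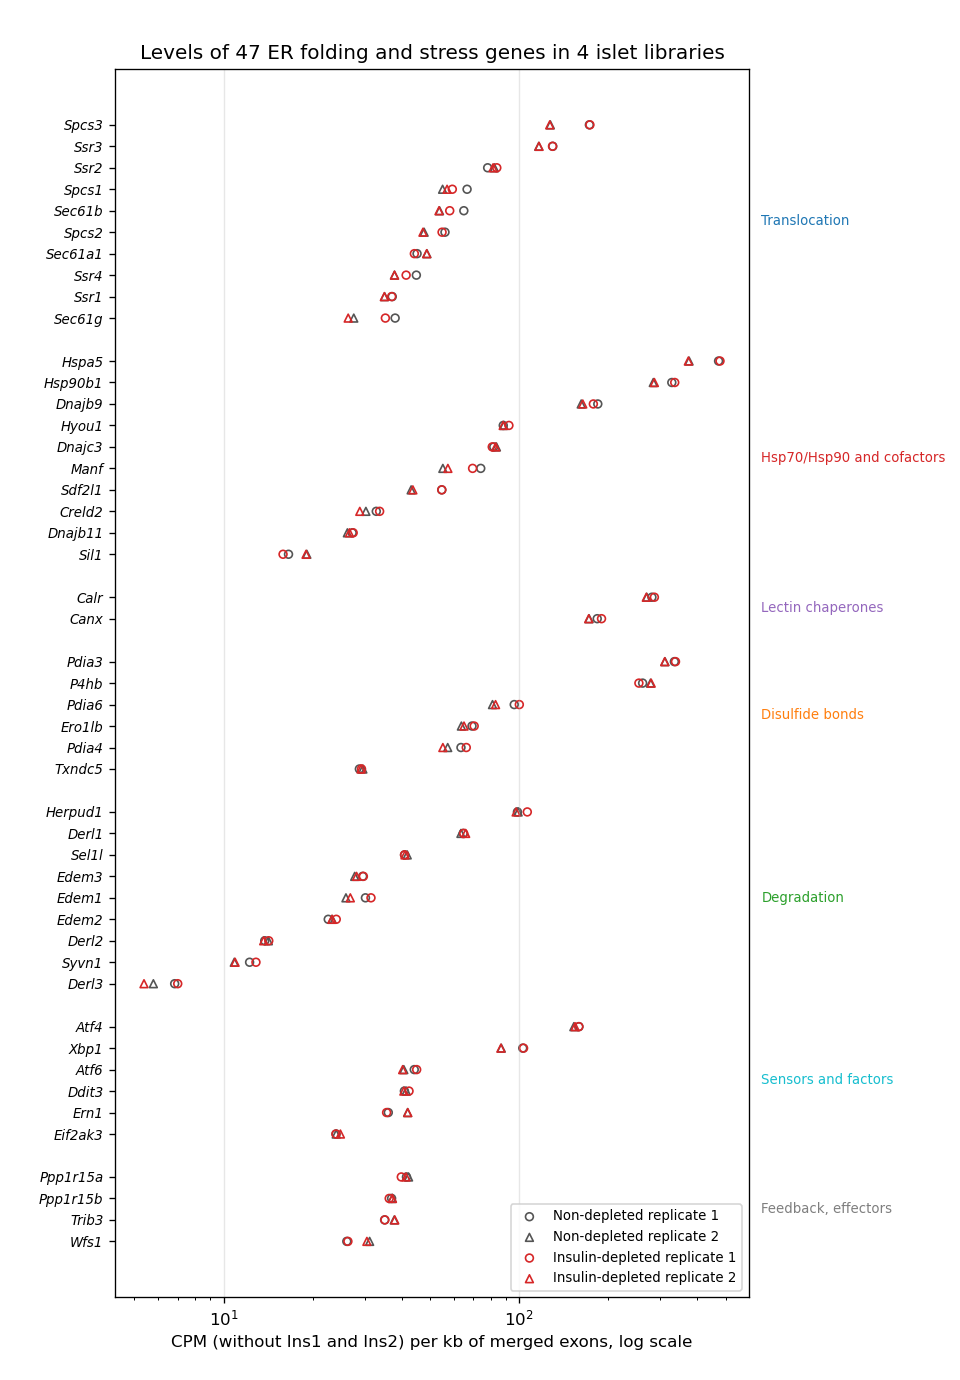
Level of each of the 47 genes in each library, as CPM without Ins1 and Ins2 per kb of merged exons on a log axis, grouped by role; circles are replicate 1, triangles replicate 2, grey non-depleted and red insulin-depleted. Hspa5 stands highest and Derl3 lowest, and symbols of the same shape lie closer together than symbols of the same colour for Hspa5, Spcs3, Ern1 and Wfs1.

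The main question for these genes was whether depleting insulin sequences altered their measured levels. None of the 47 genes passed the edgeR quasi-likelihood test over 19723 genes (adjusted p = 1.00 for each), against 0.0101% of all genes tested, which were Ins1 and Ins2. At an unadjusted p under 0.05 the count was also 0 of 47, against 0.416% of all genes, and DESeq2 and limma-voom likewise called 0. With the replicate number as a block, edgeR called 0 of 47, against 0.0456% of all genes. Log2 fold changes, insulin-depleted over non-depleted, ran from -0.10 to 0.05 with 23 above and 24 below 0. Their median was -0.0016, beside -0.0025 over all genes tested. The median size, sign ignored, was 0.02 for the group, 0.04 for protein-coding genes of at least 5 CPM and 0.07 for all genes tested. For 45 of the 47 genes (95.7%) the group difference was smaller than the mean difference between replicates. The share was 79.5% of all genes tested and 86.0% of protein-coding genes of at least 5 CPM.

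The BiP gene Hspa5 stood at 1997 and 1587 CPM without depletion and at 2019 and 1578 CPM with it, replicate 1 first. The groups overlapped fully, with a non-depleted mean of 1792 ± 290 CPM and an insulin-depleted mean of 1798 ± 312 CPM (SD, n = 2 each). Insulin-depleted over non-depleted, the log2 fold change was 0.0012 (SE 0.18), and the 95% interval allows a level between 0.739 and 1.36 times that of non-depleted islets. Ddit3, the stress-induced factor CHOP, stood at 70.0 and 71.1 CPM without depletion and at 72.6 and 69.8 CPM with it, replicate 1 first. Its replicates lay close together, so its interval was narrower, from 0.877 to 1.15 times. Xbp1 had 334 and 282 CPM without and 336 and 282 CPM with depletion, in replicates 1 and 2. These values coincided by replicate number, and the interval of Xbp1 was 0.788 to 1.27 times.

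Precision varied among the genes. On the log2 scale the 95% interval reached 0.18 to 0.53 to either side of the estimate, with a median of 0.24. It was widest for Spcs3 and Sec61g, whose replicates differed most. The fit modelled group only, so a replicate difference that recurs in both groups also widens these intervals. Tightly measured genes included the PERK gene Eif2ak3 (interval 0.894 to 1.15 times), Ppp1r15b (0.874 to 1.12) and Sel1l (0.871 to 1.12). A p that misses the threshold does not show equal levels, and changes within these intervals remain possible.

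By role, 4 of 6 sensors and transcription factors lay above 0, within -0.01 to 0.02. The chaperone class had 5 of 10 above 0, and both lectin chaperones did (0.0080 and 0.02). Of the 6 disulfide genes 4 were above 0, and of the 9 degradation genes 6, from Derl3 at -0.04 to Edem1 at 0.05. Feedback genes and Wfs1 had 1 of 4 above 0, within -0.05 to 0.0013. Translocation genes had 1 of 10 above 0 (Ssr2, 0.04), with a median of -0.02. Summed over classes, the ratio of insulin-depleted to non-depleted means stayed between 0.988 for feedback genes and Wfs1 and 1.01 for degradation.

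Only Derl1 had both insulin-depleted libraries above both non-depleted ones, and only Ppp1r15a had both below. These are 1 of 47 genes each, where 10.2% of all genes tested lay above and 9.33% below. Derl1 (ENSMUSG00000022365, chromosome 15, 57869502 to 57892448, minus strand, GRCm38) had 215 and 211 CPM without and 216 and 219 CPM with depletion, in replicates 1 and 2. Ppp1r15a (ENSMUSG00000040435, chromosome 7, 45522916 to 45526268, minus strand) had 122 and 124 CPM without and 117 and 122 CPM with depletion. For both genes the nearest libraries of the 2 groups differed by under 1 CPM, and neither gene passed the test (log2 fold changes 0.02, SE 0.07, and -0.05, SE 0.07, edgeR adjusted p = 1.00 for both).

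**Figure D3:**
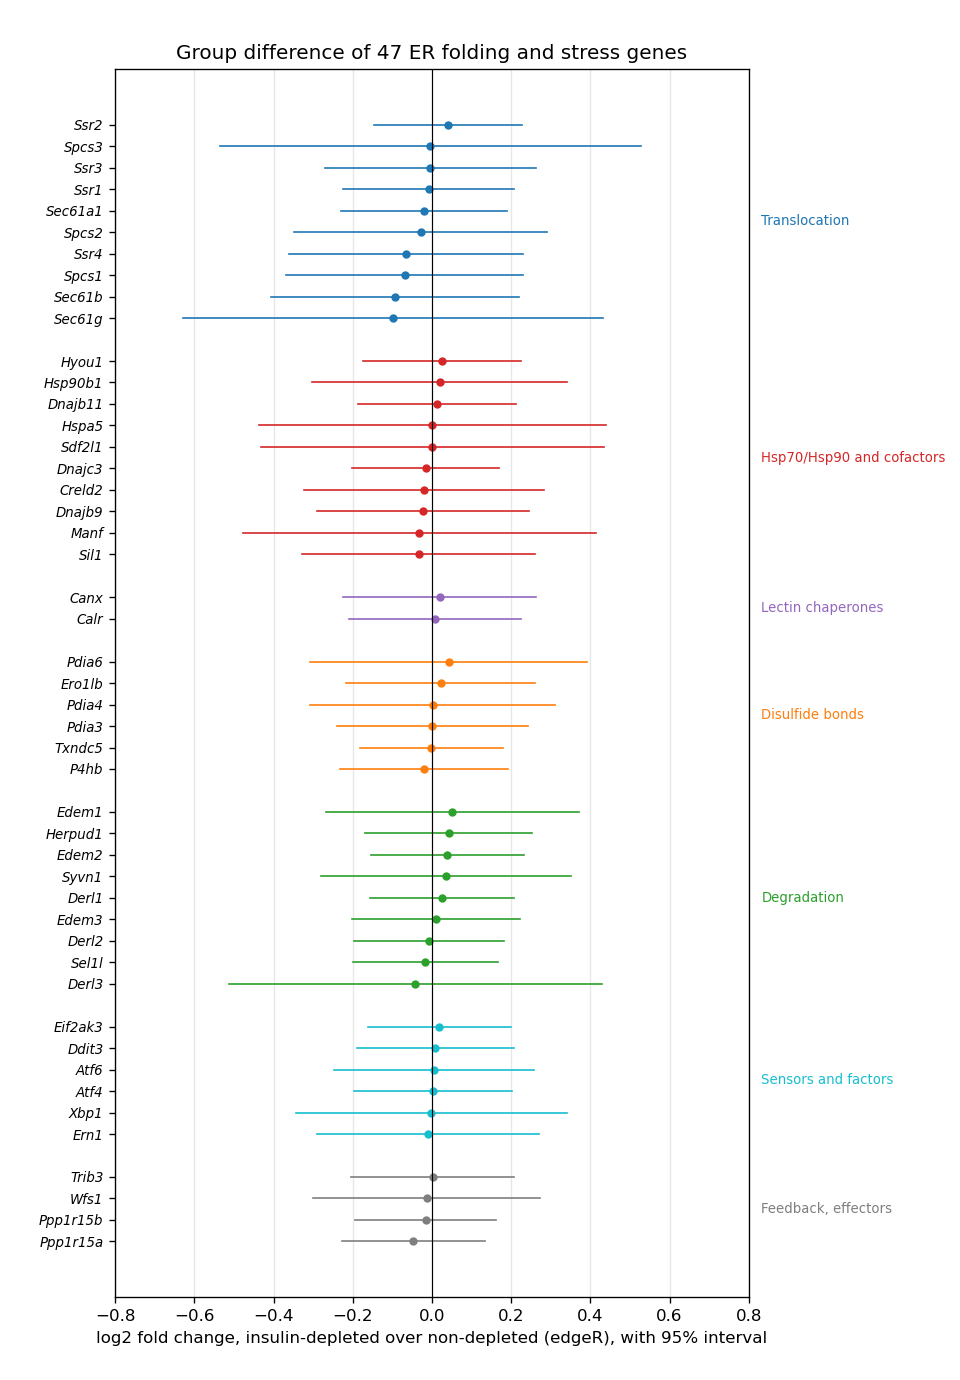
Log2 fold change of each of the 47 genes, insulin-depleted over non-depleted, with points for the edgeR estimate and bars for its 95% interval, grouped and coloured by role. Every point lies between -0.10 and 0.05 and every interval includes 0.

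The lowest values in the group belonged to small subunits of the translocation machinery, a pattern noticed after the values were seen. Sec61g had a log2 fold change of -0.10 (SE 0.21), Sec61b -0.09 (SE 0.13), Spcs1 -0.07 (SE 0.12) and Ssr4 -0.07 (SE 0.12), with edgeR adjusted p = 1.00 for each. Their longest annotated coding lengths are 300, 421, 483 and 519 bases. Sec61b stood at 82.6 and 68.3 CPM without depletion and at 74.0 and 68.1 CPM with it, replicate 1 first. For Spcs1 the values in that order were 103, 85.1, 91.8 and 88.1 CPM, and for Ssr4 139, 117.2, 128 and 117.3 CPM. In all 3 genes non-depleted replicate 1 was the highest library and the groups overlapped. Without non-depleted replicate 1 the sign turned for all 4, to 0.06 for Sec61b, 0.09 for Spcs1, 0.08 for Ssr4 and 0.17 for Sec61g. It also turned without insulin-depleted replicate 2 for Ssr4 (0.0078) and Sec61g (0.11). Leaving out a library leaves the replicate numbers unequal between groups. All 4 genes were higher in replicate 1 of both groups, so these sign changes cannot separate depletion from replicate number. By the same number, Sec61g fell from 93.8 to 86.9 and from 67.9 to 65.0 CPM with depletion. Sec61b was also lower with depletion in both numbers, and Spcs1 and Ssr4 only in number 1.

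Of the 9 genes with a coding length under 600 bases, 7 lay below 0 (median -0.03), and of the other 38 genes 17 did (median 0.0012). Over protein-coding genes of at least 5 CPM, 58.5% of 1316 short genes lay below 0 (median -0.01), and 51.7% of 9852 longer ones (median -0.0023). Spearman's rho between coding length and log2 fold change was 0.36 across the 47 genes and 0.04 across 11168 protein-coding genes of at least 5 CPM. These are descriptions across genes of the same 4 libraries. The labels leave size selection and depletion confounded here, and the part of either was not tested.

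**Figure D4:**
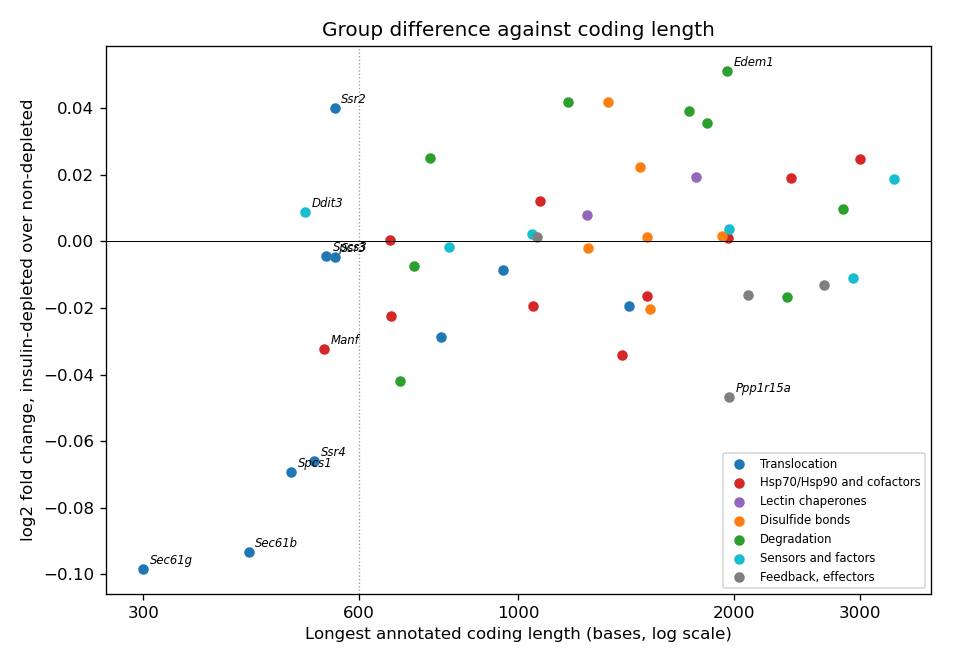
Log2 fold change, insulin-depleted over non-depleted, against the longest annotated coding length in bases (log axis) for the 47 genes, coloured by role, with a dotted line at 600 bases. The 4 lowest points are Sec61g, Sec61b, Spcs1 and Ssr4, all left of the line, while Ddit3 and Ssr2 lie left of it and above 0.

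Differences between replicates had the same sign in both groups for 39 of the 47 genes (83.0%), near the 79.6% of protein-coding genes of at least 5 CPM. In bulk RNA, fewer cells of a type and less RNA per cell cannot be told apart. Of the 47 genes, 28 were higher in replicate 1 than in replicate 2 of both groups, 11 were lower in both, and 8 had opposite signs in the 2 groups. The median ratio of replicate 1 to replicate 2 was 1.06 without and 1.06 with depletion, beside 0.981 and 0.987 for protein-coding genes of at least 5 CPM. Across the 47 genes the log2 ratios of the 2 groups had Pearson's r = 0.90, and across 11168 protein-coding genes of at least 5 CPM 0.84. The groups share no library, but whether same-numbered libraries share an animal or RNA is not stated, so this is a description and not independent support.

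Genes higher in replicate 1 were led by parts of the entry and chaperone machinery. Spcs3, a signal peptidase subunit, stood at 598 and 442 CPM without depletion and at 601 and 439 CPM with it, replicate 1 first. Sec61g, the smallest channel subunit, had 93.8 and 67.9 CPM without and 86.9 and 65.0 CPM with depletion, in replicates 1 and 2. In both genes the 2 libraries numbered 1 lay above the 2 numbered 2, so the groups overlapped.

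Replicate 1 had 1.36 and 1.37 times the Spcs3 of replicate 2 in non-depleted and insulin-depleted libraries, and 1.38 and 1.34 times the Sec61g. For Manf, a secreted ER stress protein gene, the ratios were 1.34 and 1.21, and for Hspa5 1.26 and 1.28. Sdf2l1 had ratios of 1.27 and 1.25 and Derl3, a Derlin known from secretory cells, 1.18 and 1.30. Xbp1, known to drive the growth of the ER in secretory cells, had 1.18 and 1.19.

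Other genes ran the opposite way. Ern1, the IRE1 sensor gene, had 295 and 343 CPM without and 291 and 343 CPM with depletion, in replicates 1 and 2. Wfs1 had 98.9 and 118 CPM without and 99.7 and 116 CPM with depletion. Both were lower in each library numbered 1 than in each numbered 2.

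The ratios were 0.860 and 0.848 for Ern1, 0.837 and 0.862 for Wfs1, and 0.867 and 0.836 for Sil1. Trib3 had 0.927 and 0.926. The channel gene Sec61a1 had 0.926 and 0.908, P4hb 0.940 and 0.909, and Dnajc3 0.980 and 0.974. Genes of entry and folding thus went in both directions. By class, replicate 1 summed to 1.15 and 1.16 times replicate 2 for chaperones and 1.14 and 1.12 times for translocation genes. The ratios were 1.03 and 1.03 for sensors and transcription factors, and 0.947 and 0.940 for feedback genes with Wfs1. Single genes departed from their class sum. Among chaperones Hyou1 (0.996 and 1.05), Dnajb11 (1.04 and 1.03), Dnajc3 and Sil1 had lower ratios, as did Sec61a1 among translocation genes. Marker sums of other cell types also differed by replicate number. In non-depleted and insulin-depleted libraries the ratio was 2.43 and 2.43 for acinar, 1.26 and 1.25 for delta and PP, and 1.13 and 1.14 for alpha markers. It was 0.769 and 0.785 for duct and 0.838 and 0.765 for immune markers. Within these sums single markers went either way. The delta marker Sst was lower in libraries numbered 1 (527 and 532 CPM) than in those numbered 2 (665 and 658 CPM), while Ppy was higher. Among duct markers Krt7 was lower in both libraries numbered 1, while Krt19 was higher. Of the beta-cell markers Slc2a2, Nkx6-1, Pdx1 and Mafa were lower in each library numbered 1 than in each numbered 2, as Ern1 and Wfs1 were. Iapp and G6pc2 went the other way, and the beta-cell marker sum had ratios of 1.07 and 1.05. The part of these cell types in the replicate difference was not tested. With 2 libraries in each group, no test of replicate differences was made.

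**Figure D5:**
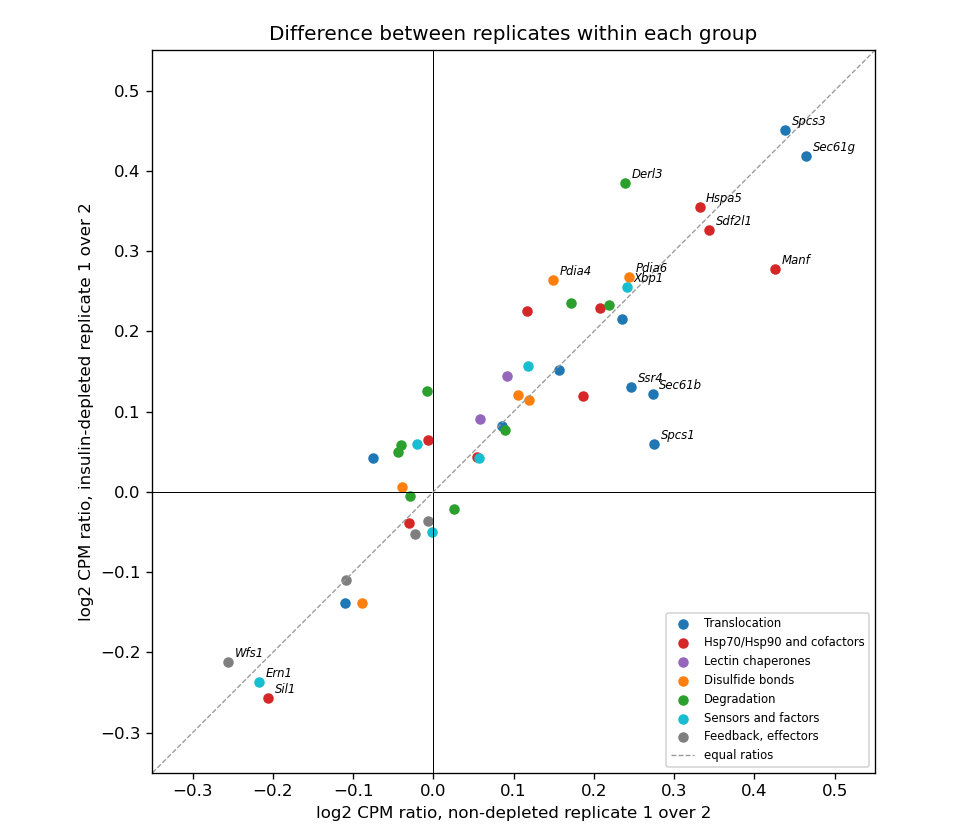
Log2 ratio of replicate 1 to replicate 2 for each of the 47 genes, in non-depleted libraries (horizontal axis) and insulin-depleted libraries (vertical axis), with a prior count of 2. Spcs3 and Sec61g lie at the upper right and Ern1, Wfs1 and Sil1 at the lower left.

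A further 65 genes of the same pathway were examined as a list, among them signal recognition, glycosylation and stress target genes. All 65 were tested and 0 passed the edgeR quasi-likelihood test, against 0.0101% of all genes tested. At an unadjusted p under 0.05 the count was also 0, against 0.416% of all genes. DESeq2 and limma-voom called 0. Log2 fold changes lay above 0 for 23 and below 0 for 42, where 48.8% of all genes tested lay above 0. The median of the 65 was -0.01, beside -0.0025 over all genes tested. Atf5, a stress-responsive transcription factor gene, had the highest level per length with 241 CPM per kb. It was followed by Srpr, the signal recognition particle receptor gene, with 144, and Tram1, a translocating chain protein gene, with 125.

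The largest fold changes among list genes of at least 5 CPM were -0.24 (SE 0.17) for Srp54a, -0.13 (SE 0.10) for Eif4ebp1 and -0.13 (SE 0.13) for Cebpb, on the log2 scale. Srp54a, a signal recognition particle subunit gene, had 23.4 and 18.0 CPM without and 16.8 and 18.2 CPM with depletion, in replicates 1 and 2. Its groups overlapped, with non-depleted replicate 1 the highest library.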

How the data were processed

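Counts per gene in 4 libraries were deposited by the authors as whole numbers, not normalized. The columns of the non-depleted libraries were listed under the unit expected counts because their deposited names carry the word size, but they too hold whole numbers. Per the submitters' processing notes, cutadapt 4.8 and STAR 2.7.11b were used with GRCm38 (mm10). The counting program and strand setting stay unnamed, being not given in the sources used here. Of single-digit counts of 2 or more, 80.0% to 84.0% were even, and halved counts were run as an alternative.

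Levels are CPM of library totals without Ins1 and Ins2, and per kb of merged exons (GRCm38 annotation). Groups came from the labels. The group test was edgeR 4.0.16 quasi-likelihood (TMM, low-count filter, group only, Benjamini-Hochberg over 19723 genes, threshold 0.05), in R 4.3.3, tested on simulated data. Alternatives were other scalings, no filter, DESeq2 1.42.0, limma-voom (limma 3.58.1), counts divided by 2, a replicate block and leaving out each library. Shared sequence was counted in 31-base stretches. Any of the 47 genes could be named; of the 65 other genes, the 3 highest per length and the 3 largest fold changes at 5 CPM or more. Genes and lists were chosen with earlier results of these data known.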

Additional observations from a re-analysis of the deposited data

How the results depend on the processing

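None of the 47 genes was called by any of the 11 alternatives. With the replicate block, 9 genes of all tested were called in place of 2, none of them among the 47, and 1 of the 47 had an unadjusted p under 0.05 (Sec61g, edgeR adjusted p = 0.999). The 2 libraries of a number are not stated to share an animal, so the block was not the basis of the test. The median log2 fold change of the 47 genes was between -0.0085 and 0.0025 under other scalings and tools, and between -0.05 and 0.06 when 1 library was left out, against -0.0016 in the reported fit. Leaving out a library kept the count of genes called over all tested at 2. Summed over the 47 genes, the level per kb was 4100 with merged exons and 5081 with the longest annotated transcript. That transcript is as long as the merged exons of its gene or shorter. With 2 libraries in each group, the 95% intervals allow changes of the sizes given beside each gene, and p-values measure only the spread between these libraries.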
